A study of Mus musculus with 6 samples.

Results

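Of 1253 genomic regions called for Spt16 after 10 h of doxycycline, 458 (36.6%) lay between genes and far from gene starts. Members were the regions that overlapped no gene in the authors' deposited gene table and either had a smallest start distance over 5000 bp, measured from the middle of the region, or had no gene listed. The remaining Spt16 regions comprised 382 within 5000 bp of a start (30.5%) and 413 inside a gene body with the start farther away (33.0%). The rule used position only. Among the members, 325 had a listed gene and 133 had none. The deposited table lists genes to within 50 kb of a region, so those 133 had no annotated gene within that span.

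The assay was ChIP-seq, in which sheared chromatin is pulled down with an antibody and its DNA is sequenced. The cells were C57BL/6 mouse embryonic stem cells carrying an Oct4 gene that doxycycline switches on (tet-ON). Cells of every group, input included, carried that gene and had been differentiated with retinoic acid before PBS or doxycycline was given. The libraries used here were Spt16, Oct4 and Jmjd1c ChIP and input chromatin, all labelled 10 h, and per the file headers that time is counted under doxycycline. The series also has Oct4 ChIP and input libraries at 0 h, which were not analysed here. Each group held 1 library, with 36669596 reads for Spt16, 15543450 for Oct4, 26736842 for Jmjd1c and 14592994 for input. No value below has a replicate, and every interval covers counting error only. Intervals on shares of regions treat the regions of 1 library as independent draws. Overlapping intervals do not show that a difference is absent. In bulk chromatin, a site occupied in more cells and a site with more Spt16 per cell cannot be told apart. No transcript levels were measured, so the state of the cells could not be checked against their markers.

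Spt16 forms the histone chaperone FACT together with Ssrp1. FACT handles histone H2A-H2B dimers, loosening and rebuilding nucleosomes, and is best known from transcribed genes. Oct4, encoded by Pou5f1, is a POU-domain transcription factor that in embryonic stem cells binds many sites distant from gene starts, often beside Sox2, and enhancers of that kind can act on genes across long intervals. Jmjd1c carries a Jumonji domain, the catalytic fold of one class of histone demethylases.

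Several microRNA (miRNA) genes were among the neighbors, and mature sequences from a strong and a weak member's loci are shown to identify them. In all, 9 members (1.97%) listed at least 1 miRNA gene, against 29 of the other Spt16 regions (3.65%). Of the 15 miRNA genes beside members, 12 matched the RefSeq table (GRCm38.p6) by symbol. A region on chromosome 2 lay 5604 bp from Mir296 and 6064 bp from Mir298, in the imprinted Gnas and Nespas neighborhood. It was one of the stronger members, with 73 Spt16 reads, 1 input read and an overlapping Oct4 region of 20 reads. A region on chromosome 8 lay 13965 bp from Mir23a, 14119 bp from Mir27a, 14262 bp from Mir24-2, 15585 bp from Mir181c and 15766 bp from Mir181d. That region had only 26 reads, the smallest number in the list, with 0 input reads and no Oct4 region. Capitals mark the seed, bases 2 to 8, which pairs with target transcripts. The 5p arms of miR-181c and miR-181d share the seed ACAUUCA, and the other arms printed each have their own.
mmu-miR-296-5p: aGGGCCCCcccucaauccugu
mmu-miR-296-3p: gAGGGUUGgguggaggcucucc
mmu-miR-298-5p: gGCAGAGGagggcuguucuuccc
mmu-miR-298-3p: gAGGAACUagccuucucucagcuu
mmu-miR-23a-3p: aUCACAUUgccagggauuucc
mmu-miR-27a-3p: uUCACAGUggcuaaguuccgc
mmu-miR-24-3p: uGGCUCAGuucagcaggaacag
mmu-miR-181c-5p: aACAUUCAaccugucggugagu
mmu-miR-181d-5p: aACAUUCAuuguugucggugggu
On GRCm38.p6, miR-296-5p lies on the minus strand of chromosome 2 from 174267093 to 174267113, and miR-181c-5p on the minus strand of chromosome 8 from 84178924 to 84178945. Region coordinates elsewhere in the text are mm9 coordinates as deposited, and the 2 builds were not converted into each other.

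The members held 26 to 144 Spt16 reads in their best window, the stretch that carries the authors' score for the region, with a median of 38. Scaled to the library total this was 0.709 to 3.93 RPM (reads per 1000000 library reads), with a median of 1.04 RPM. The median was 35 reads within 5000 bp of a start and 38 reads in gene bodies, against 37 over the whole list, and the quartiles were 30 and 50 reads among members and 30 and 46 among all other Spt16 regions. The groups thus covered nearly the same range, except that the strongest regions of the list, with up to 217 reads, lay in a gene body or near a start. By score, 2 of the top 10 Spt16 regions were intergenic, as were 42 of the top 100 and 41 of the bottom 100. Together they held 37.0% of all Spt16 reads in best windows, close to their 36.6% share of the regions.

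The members were short. Their widths ran from 170 to 837 bp with a median of 289.5 bp, against 287 bp at the other Spt16 regions, and together they covered 137.2 kb. The narrowest lay on chromosome 2 at 151855202 to 151855372 with 26 reads, and the widest on chromosome Y at 2793170 to 2794007 with 52 reads. Stronger regions were wider (Spearman's rho 0.71 between reads and width across the 458 members, as a description, since more reads also join more windows into a region). The middle of the best window lay a median of 15.5 bp from the middle of the region. A median of 5 windows, and a single window at 67 members (14.6%), made up a region.

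**Figure D1:**
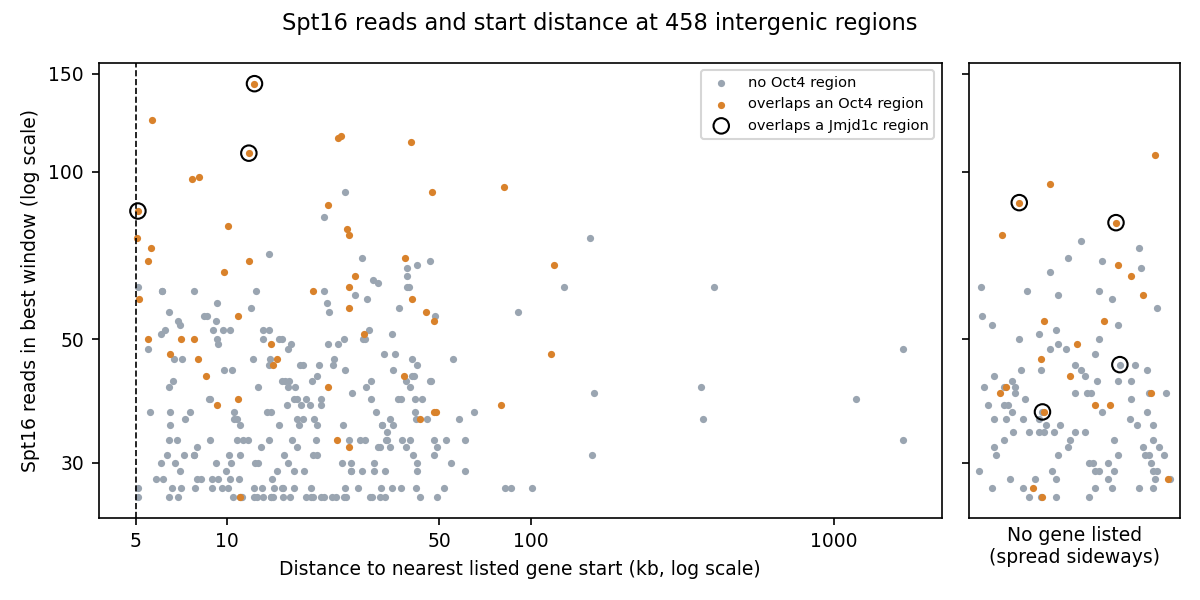
Each point is 1 of the 458 intergenic Spt16 regions, with Spt16 reads in the best window (log scale) against distance to the nearest listed gene start (kb, log scale) on the left, and the 133 regions with no gene listed, spread sideways at arbitrary positions, on the right. Orange points overlap an Oct4 region, circled points a Jmjd1c region, and the dashed line marks 5 kb. The highest read number is 144 among regions with a listed gene and 107 among those without, and the Oct4-overlapping regions lie mostly toward the top.

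The region with the most reads lay on chromosome 14 at 86795756 to 86796301, 12300 bp upstream of a gene named U1, the name of a spliceosomal small nuclear RNA (ENSMUSG00000087812). It held 144 Spt16 reads, 69 on the plus and 75 on the minus strand, and 0 input reads. Against an input floor of 3 reads (0.206 RPM) this was at least 19.1-fold. The next by score, on chromosome 15 at 55099582 to 55100042, had 124 reads and 0 input reads, at least 16.4-fold, and lay 5655 bp from a gene named U7, the name of the small nuclear RNA of histone transcript processing. A region 11785 bp upstream of Slain2, which encodes a microtubule plus-end protein, held 108 reads against 0 input reads (chromosome 5, 73293534 to 73293981). Input was at 0 in each of these 3, so their folds are lower bounds.

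Next in score came regions beside developmental regulators. Jarid2 encodes a Jumonji protein of Polycomb repressive complex 2, and a region 23753 bp upstream of its start (chromosome 13, 44800787 to 44801392) held 116 Spt16 reads against 1 input read, a ratio of 46.2 with a 95% counting interval of 8.12 to 1839. Sall1 encodes a spalt-family zinc finger protein, and a region 40414 bp away on the downstream side (chromosome 8, 91527417 to 91527875) held 113 reads against 1. Both intervals are wide because a single input read sets the denominator. The other members of the top 10 were a region 47419 bp upstream of Prr5, a component of the mTOR complex 2 (92 reads against 0), one 23160 bp upstream of Traf3, a signaling adaptor (115 against 3), and 3 regions with no gene listed. Those 3 lay on chromosome 1 at 59480027 to 59480467 (95 against 0), chromosome 3 at 18523856 to 18524338 (107 against 2) and chromosome 9 at 120599629 to 120600087 (88 against 0). The strongest Spt16 sites without a listed gene thus reached 88 to 107 reads, below the 144 reads beside U1 and above the 38-read median. Next by score, though not by reads, among regions without a listed gene were those on chromosome 8 at 93194643 and chromosome 13 at 57463954. They held 77 and 68 reads, each with 0 input reads and an overlapping Oct4 region.

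No input read fell in the best window of 303 members (66.2%, 95% Clopper-Pearson interval 61.6 to 70.5), against 68% of all Spt16 regions, 72.5% near starts (67.7 to 76.9) and 65.9% in gene bodies (61.1 to 70.4). The remaining members had 1 to 5 input reads. The authors' score is computed from ChIP and input reads together, so its minimum acts on this share. At 26 to 30 reads, all 118 members and all 216 other regions had no input read, and at 61 to 90 reads 34.7% of members and 34.5% of the others had none. Members without a listed gene were input-free at 62.4% (53.6 to 70.7) and those with one at 67.7% (62.3 to 72.7), and these intervals overlap.

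Reads were evenly divided between strands. Plus-strand reads made up 50.7% of the 19531 Spt16 reads in member windows. In an exact binomial test of plus against minus reads with Benjamini-Hochberg adjustment over the 1253 Spt16 regions, 0 members were called, against 0% of the list, and at an unadjusted p under 0.05 there were 0 members, against 0.0798% of the list. The lowest unadjusted p among members was 0.11, at the Jarid2 region with 49 plus and 67 minus reads (exact binomial test, two-sided). The squared strand difference divided by the read number averaged 0.304 over members, where independent reads would give 1. Near starts it was 0.266 and in gene bodies 0.284. The strands were therefore more even than independent reads in each class, and the cause was not tested.

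For the 325 members with a listed gene, the nearest start was 5041 to 1692183 bp away, with a median of 18676 bp. There were 74 members at 5 to 10 kb, 100 at 10 to 20 kb, 125 at 20 to 50 kb and 26 beyond. Median Spt16 reads were 41.5, 35, 39 and 37.5 in those bands and 38 where no gene was listed, so read number followed no order with distance. The nearest gene body was a median of 13583 bp away. Just inside the 5000 bp limit were a region 5041 bp upstream of Kat2b, which encodes a histone acetyltransferase (76 reads, 24 Oct4 reads), and one 5069 bp from Inmt, a methyltransferase gene (26 reads). Just outside were regions 4925 bp from CR956641.1 (28 reads) and 4867 bp from Camk2n1, an inhibitor of a calmodulin-dependent kinase (29 reads).

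Of the same 325, 184 lay upstream of the nearest start (56.6%, 51.0 to 62.1) and 141 on the downstream side. A region on the downstream side must by the rule lie beyond the end of that gene, so the rule alone limits that group. Oct4 regions overlapped 17.9% of the upstream regions (12.7 to 24.3) and 14.2% of the downstream ones (8.88 to 21.1), and these intervals overlap. Members listed a median of 1 gene, against 3 at the other Spt16 regions.

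The share of a chromosome's Spt16 regions that were members ran from 25% on chromosome 7 to 100% on chromosome Y. All 7 regions on chromosome Y were members, with no gene listed for any of them. Members made up 57.6% of the regions on chromosome 18 (19 of 33, 39.2 to 74.5), 49.1% on chromosome 9 (27 of 55, 35.4 to 62.9) and 46.3% on chromosome 8 (37 of 80, 35.0 to 57.8). The lowest shares were 25% on chromosome 7 (16 of 64, 15.0 to 37.4) and 25.6% on chromosome 11 (20 of 78, 16.4 to 36.8). Chromosome X had 12 of 29. The interval of chromosome 18 lay above those of chromosomes 6, 7 and 11. That of chromosome Y (59.0 to 100) overlapped those of chromosomes 9, 14, 16, 18 and X and lay above the rest. No difference between chromosomes was tested. Chromosome 1, with 40, held more members than any other.

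**Figure D2:**
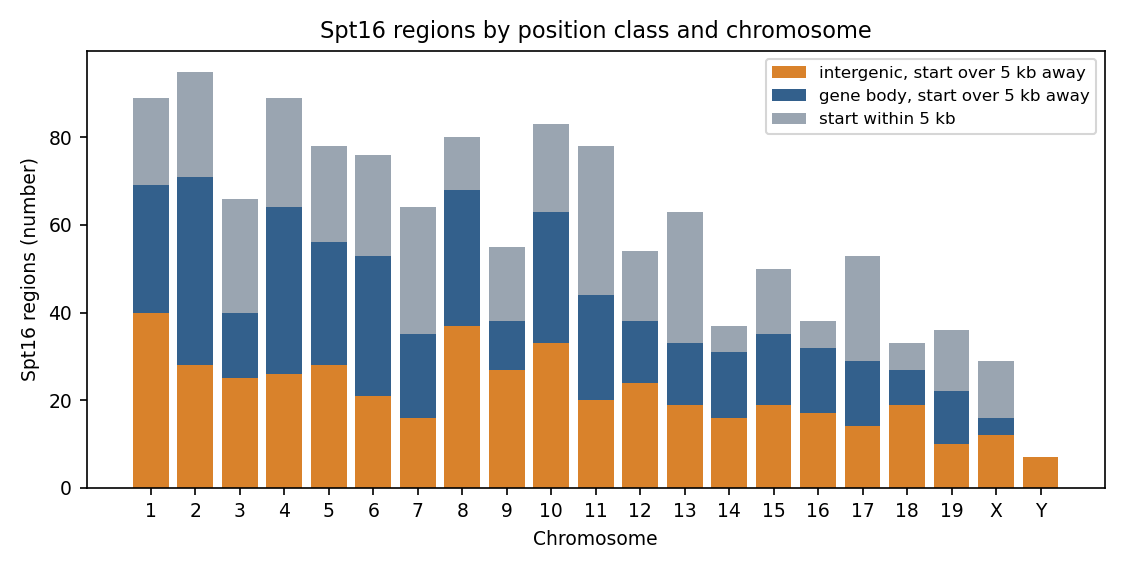
Bars give the number of Spt16 regions on each chromosome, divided into intergenic regions (orange), gene-body regions with a distant start (blue) and regions within 5 kb of a start (grey). Chromosome 1 has the most intergenic regions, 40, and all 7 regions on chromosome Y are intergenic.

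The Y chromosome regions mostly had input reads. They held 37 to 75 Spt16 reads with a median of 55, and 1 of the 7 had no input read (14.3%, 0.361 to 57.9), against 66.2% of all members. The input-free share of members was lower at higher read numbers, 45.5% at 41 to 60 reads and 34.7% at 61 to 90. The wide interval of the Y regions covers both, so a difference at like read numbers cannot be told from these 7. Input reached 5 reads at 1 of the Y regions, and no region in the list had more. None overlapped an Oct4 region, and 1, with 37 Spt16 reads, overlapped a Jmjd1c region of 29 reads. Their squared strand difference divided by the read number averaged 1.41, against 0.304 over all members.

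An Oct4 region overlapped 75 members by at least 1 bp (16.4%, 13.1 to 20.1), against 13.4% of all Spt16 regions, 10.7% near starts (7.81 to 14.3) and 12.6% in gene bodies (9.55 to 16.2). The share among members was above that of all other Spt16 regions (11.7%, 9.55 to 14.1), but the intervals overlap, and no test of the difference was run because regions of 1 library are not replicates. The 75 were also 28.3% of the 265 Oct4 regions (23.0 to 34.1). By their own gene table, 116 Oct4 regions were intergenic and far from starts. Of these, 75 overlapped a Spt16 region (64.7%, 55.2 to 73.3), against 62.4% of the other Oct4 regions (93 of 149, 54.1 to 70.2). Spt16 thus covered Oct4 regions between genes at about the share it did elsewhere in the Oct4 list.

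Within the members, Oct4 overlap went with Spt16 strength and much less with distance. All 10 of the highest-scoring members overlapped an Oct4 region, as did 33 of the highest 50, 45 of the highest 100 and 4 of the lowest 100. By read number, the share was 3.39% at 26 to 30 reads (0.931 to 8.45), 8.90% at 31 to 40 (4.83 to 14.7), 19.7% at 41 to 60 (13.3 to 27.5), 40.8% at 61 to 90 (27.0 to 55.8) and 92.3% at 91 or more (12 of 13, 64.0 to 99.8). The other Spt16 regions had 3.70%, 5.99%, 14.0%, 37.9% and 73.7% in the same bands. In each band the interval of the members overlapped that of the others. The only member with 91 or more reads and no Oct4 region lay 24522 bp upstream of Kcnd3, a potassium channel gene (92 reads against 2 input reads). By distance the Oct4 share was 21.6% at 5 to 10 kb (12.9 to 32.7), 11% at 10 to 20 kb (5.62 to 18.8), 17.6% at 20 to 50 kb (11.4 to 25.4), 15.4% beyond (4.36 to 34.9) and 16.5% with no gene listed (10.7 to 24.0). Read totals differed between the Oct4 and Spt16 libraries, and the part of depth in these shares was not tested. Per the file headers, 10 regions also found in uninduced cells had been removed from the Oct4 list.

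**Figure D3:**
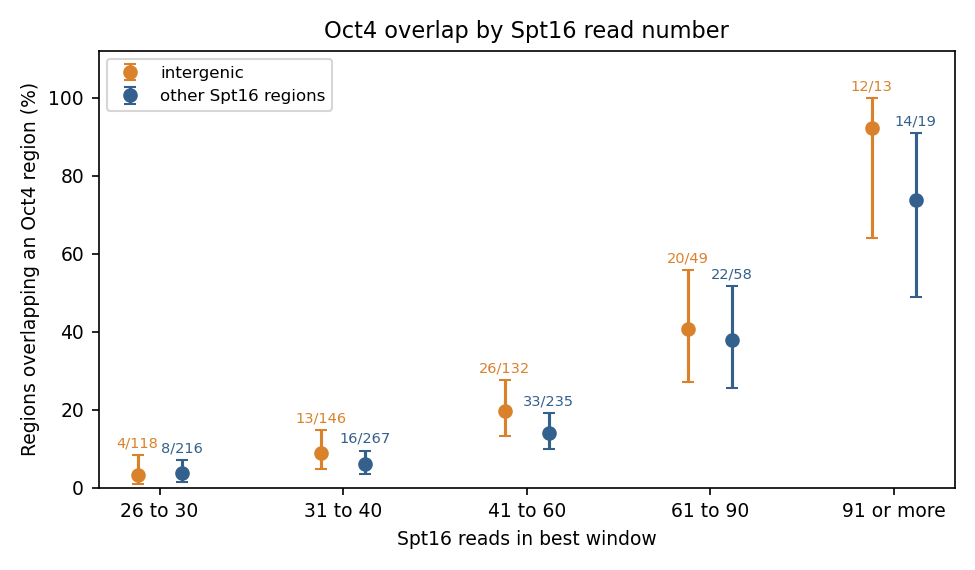
Points give the percent of Spt16 regions that overlap an Oct4 region, by number of Spt16 reads in the best window, for the 458 intergenic regions (orange) and the other 795 (blue), with 95% Clopper-Pearson intervals and counts above. The share rises from 3.39% to 92.3% among intergenic regions, and intervals of both groups overlap in each band.

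The median Spt16 read number was 55 (26 to 144) at members shared with Oct4, against 36 (26 to 92) at the 383 without, so these ranges overlap widely. They were also wider, with a median of 393 bp against 274 bp. Oct4 reads at the 75 ranged from 15 to 40 with a median of 20. The best windows of both proteins lay a median of 28 bp apart (0 to 277 bp), and at 53 of the 75 within 50 bp. Oct4 and Spt16 reads rose together across the 75 (Pearson's r 0.74, Spearman's rho 0.70, as a description across regions of 2 libraries that share 1 input). Both lists required a minimum score, which removes weak pairs.

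Apart from regions described elsewhere here (the chromosome 3 region near Gm10704 and the gene-free chromosome 8 region at 93194643), the next Oct4-marked members by score lay 8066 bp from Samd13 (98 Spt16 reads, 37 Oct4 reads), 21502 bp upstream of Dpp6, a potassium channel subunit gene (87 and 25), and 7678 bp from H2afb1, which encodes a histone H2A variant (97 and 25). They were followed by regions 24742 bp upstream of Oit1 (79 and 30) and 5041 bp upstream of Kat2b (76 and 24). Input reads were 0 or 1 at each of these 5.

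Spt16 RPM exceeded Oct4 RPM at 50 of the 75 shared members, with a median ratio of 1.14 (0.612 to 2.25). The medians were 1.16 for shared regions near starts and 1.13 in gene bodies, and the median over all 168 shared regions was also 1.14. Spt16 RPM was the higher at about the same share of the other shared regions as of the members. The excess of Spt16 over Oct4 RPM was therefore not particular to members. In an exact binomial test with Benjamini-Hochberg adjustment over all 168 shared regions, Spt16 was higher at 3 members, against 5.95% of shared regions, and lower at 0 members, against 0%. At an unadjusted p under 0.05, it was higher at 8 of the 75 members and lower at 0, and 23 of all 168 shared regions passed. The 3 members called by the exact binomial test were the chromosome 14 region beside U1 (144 and 35 reads, ratio 1.74, 95% counting interval 1.20 to 2.60, adjusted p = 0.040), the gene-free chromosome 1 region at 59480027 (95 and 18 reads, ratio 2.24, 1.34 to 3.94, adjusted p = 0.019) and a chromosome 3 region 5077 bp from Gm10704 (85 and 16 reads, ratio 2.25, 1.31 to 4.12, adjusted p = 0.028). The libraries were also scaled to their summed reads at the shared regions in place of their totals. The exact binomial test then called 0 members, against 2 of all 168 shared regions. At an unadjusted p under 0.05, Spt16 was then higher at 5 members, and 19 of the 168 passed in either direction. Members with lower Spt16 were not counted under that scaling, so the 5 and the 19 are not a like comparison. These tests compare reads of 2 libraries in separately chosen best windows, not conditions. The lowest ratio was 0.612, at a region 11008 bp from Tpd52l1 with 26 Spt16 and 18 Oct4 reads, and its interval of 0.323 to 1.19 includes 1.

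**Figure D4:**
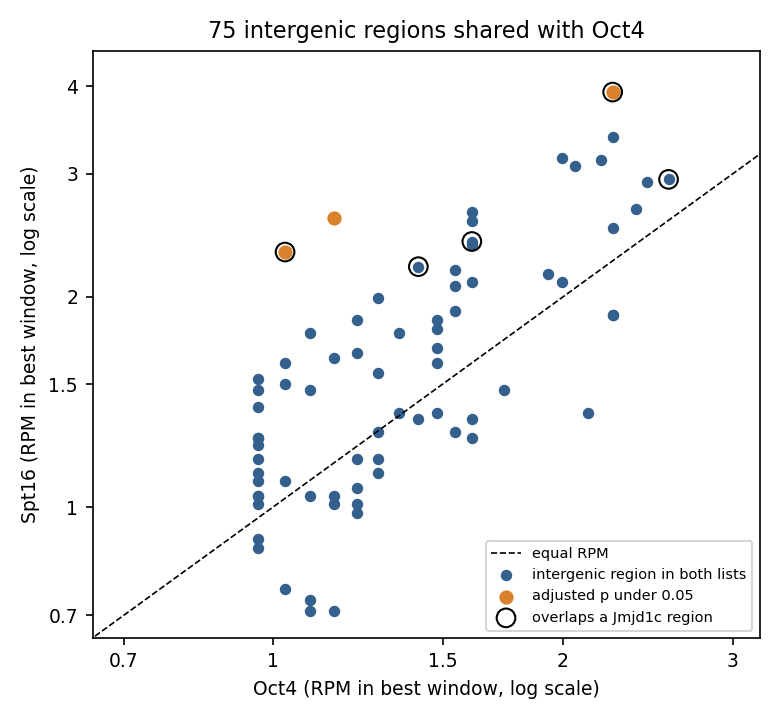
Each point is 1 of the 75 intergenic regions in both lists, with Spt16 RPM against Oct4 RPM in the best window of each list (both log scales). The dashed line marks equal RPM, orange points passed an adjusted p of 0.05 with scaling to library totals, and circled points overlap a Jmjd1c region. Of the points, 50 lie above the line.

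Jmjd1c regions overlapped 7 members (1.53%, 0.617 to 3.12), against 1.12% of all Spt16 regions. They were 29.2% of the 24 Jmjd1c regions (12.6 to 51.1). Of the 7, 5 also overlapped an Oct4 region. At the region beside U1, Jmjd1c gave 41 reads, Oct4 35 and Spt16 144, each with 0 input reads. At the Slain2 region the reads were 35, 40 and 108. The gene-free chromosome 9 region at 120599629 had 30, 25 and 88, and the chromosome 3 region near Gm10704 had 24, 16 and 85, with input again at 0 for all. The gene-free chromosome 8 region at 24672413 to 24672944 had 36 Jmjd1c, 22 Oct4 and 81 Spt16 reads, with 2 input reads in the Spt16 window. The remaining 2, on chromosomes 18 and Y, had 32 and 29 Jmjd1c reads and 45 and 37 Spt16 reads, no Oct4 region and no listed gene. Of the 7 members marked by Jmjd1c, 4 had no gene listed, against 133 of all 458.

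From a list of 50 pluripotency genes, 11 were listed beside 12 members, 2.62% of all members (1.36 to 4.53), against 33 of the other 795 Spt16 regions (4.15%, 2.87 to 5.78). Of the 11, 7 were listed beside members only (Jarid2, Klf4, Klf5, Otx2, Prdm14, Sall4 and Zfp42), and Klf2, Lefty1, Lefty2 and Sox15 were also listed beside other Spt16 regions. The same share over all listed genes was not computed, so this split is no result about pluripotency genes. In all, 37 of the 50 genes were listed beside some Spt16 region. Oct4 regions overlapped 2 of the 12 members. Counting the nearest listed gene only left 8 members (1.75%), since a gene outside the list was nearer at the Klf4, Klf5, Otx2 and Sox15 regions. Since a member has a distant start by the rule, fewer genes are listed beside it, and the shares are a description.

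At Lefty1, an antagonist of Nodal signaling, the member lay 10068 bp upstream (chromosome 1, 182854848 to 182855320) and 31846 bp from the related Lefty2. It held 80 Spt16 reads against 3 input reads, a ratio of 10.6 (3.50 to 52.5), and its Oct4 region held 24 reads. It was 8904.5 bp from another Spt16 region, nearer a start, that held 84 reads. Klf4, a Krüppel-like reprogramming factor, had a member 54902 bp downstream of its start (chromosome 4, 55490274 to 55490614; 55 reads against 2, ratio 10.9, 2.89 to 92.6), and a second member with 41 reads against 0 stood 2001.5 bp from it. Klf2, a relative, had one 15479 bp downstream (42 reads against 0, at least 5.57-fold). Klf5, the third of these factors, had one 41192 bp downstream with 27 reads. None of the 4 regions at the Klf genes overlapped an Oct4 region. The Klf4 and Klf2 values were above or near the 38-read median of members, whereas that at Klf5 was among the weakest.

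Prdm14, which represses differentiation genes in naive embryonic stem cells, had a pair of members 42166 and 52544 bp downstream of its start, with 45 reads against 1 and 33 against 0. Sall4 (12221 bp upstream), a zinc finger pluripotency factor, and Zfp42 (13938 bp upstream), a classical stem cell marker known as Rex1, each had 26 reads against 0, at least 3.45-fold. Otx2 (33517 bp) and a second Jarid2 region (7044 bp) had 27 reads each, and Sox15 (48980 bp) had 28. These last 5 stood at or just above the lowest read number in the list, 26, and they had 0 input reads and no Oct4 region.

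**Figure D5:**
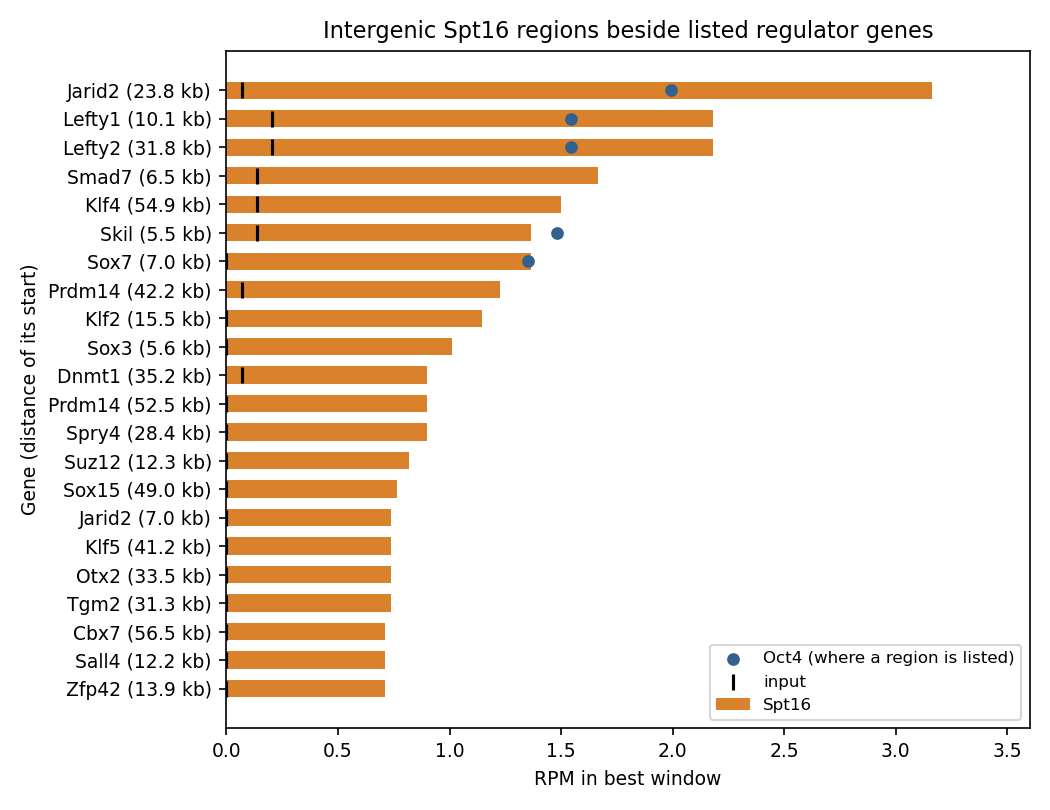
Orange bars give Spt16 RPM in the best window of each intergenic region listed beside a gene of the lists described here, with the distance to that gene's start in brackets; blue points give Oct4 RPM where an Oct4 region overlaps, and black ticks give input RPM. Lefty1 and Lefty2 share 1 region. The Jarid2 region 23753 bp away is highest, and the Lefty region follows.

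Of 23 signaling targets, 5 were beside 4 members. Besides the Lefty genes these were Smad7, an inhibitory Smad (6535 bp; 61 reads against 2), Skil, a repressor in the same pathway (5467 bp; 50 against 2, Oct4 23 reads), and Spry4, an inhibitor of growth factor signaling (28435 bp; 33 against 0). Of 30 germ layer and lineage regulators, 3 had a member: Sox7, an endoderm regulator (7038 bp upstream; 50 reads against 0, Oct4 21 reads), Sox3, which acts in neural progenitors (5574 bp; 37 against 0), and Otx2. Of 35 chromatin regulators, 4 had one. These were Jarid2, its Polycomb partner Suz12 (12322 bp upstream; 30 against 0), the Polycomb protein Cbx7 (56493 bp; 26 against 0) and the maintenance DNA methyltransferase Dnmt1 (35218 bp; 33 against 1). Of 19 retinoic acid response genes only Tgm2, a transglutaminase, had one (31343 bp; 27 against 0), and of 18 fibroblast and extraembryonic markers none did. The shares of members were 0.873%, 0.655%, 1.09%, 0.218% and 0% for these 5 lists, and those of the other Spt16 regions 1.13%, 0.377%, 1.38%, 0.755% and 0.126%. In each list the 2 intervals overlap. Another gene lay nearer than the named one at the Smad7, Otx2, Cbx7, Dnmt1 and Tgm2 regions.

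Genes with small RNA names, miRNAs left out, were listed beside 59 members (12.9%) and 143 of the other Spt16 regions (18.0%). The name U6 was listed beside 13 members (2.84%) and 39 other regions (4.91%), and U1 beside 5 (1.09%) and 27 (3.40%). The name 7SK was listed beside 8 members (1.75%) and 18 other regions (2.26%). Of the names counted, the share was higher among members only for U7 and SNORA. U7 was beside 4 members (0.873%) and 2 other regions (0.252%), and SNORA names beside 18 (3.93%) and 23 (2.89%). The names U2, U4, U5, SNORD, 5S_rRNA and Y_RNA also had a lower share among members. These differences were not tested. Among miRNA genes not shown by sequence, Mir145 and Mir143 lay 10208 and 11563 bp from a member on chromosome 18. Genes with these names include many copies across the genome, and which of them are active was not analysed here. Histone genes named Hist were listed beside 0 members (0%) and 32 other Spt16 regions (4.03%), at 30 of which one was the nearest gene. A member must lie outside genes and over 5000 bp from every listed start, so the rule itself limits this count.

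Members rarely lay close to another Spt16 region. The nearest other Spt16 region was a median of 558094 bp away, against 268290 bp for the other Spt16 regions, and 81 members (17.7%, 14.3 to 21.5) had one within 50 kb, against 38.0% near starts (33.1 to 43.0) and 16.0% in gene bodies (12.6 to 19.9). Within 10 kb of one another, 15 groups of members formed, the largest with 3 regions, on chromosome 16. The closest pair lay 1051.5 bp apart, 12647 and 13698 bp upstream of Lifr, which encodes the receptor for leukemia inhibitory factor, with 41 reads against 0 and 52 against 3. Other pairs were named, like Lifr, after their values were seen, each by its nearest listed start. The Csmd1 pair, 1628 bp apart, lay 1692183 and 1690555 bp downstream of that start (48 and 33 reads). The B3gnt7 pair, 1673 bp apart, lay 6254 and 7927 bp downstream (52 and 32). The Dctd pair, 2029 bp apart, lay 80145 and 82174 bp downstream (38 and 27). The strong chromosome 1 region at 59480027 (95 reads) had a weak companion 3655.5 bp away with 28 reads.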

How the data were processed

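The submitters' processing notes name CASAVA 1.4, Bowtie and the mm9 build for the ChIP-seq reads. The version of Bowtie and the program that called regions are not given in the sources used here. Per the file headers, regions had to reach a Q value score of 13 and a log2 ratio of ChIP to input of 1, the score being inferred from its values to be on a -10 log10 scale. The deposited tables give whole-number read counts per strand in the best window of each region, and 10 Oct4 regions found in uninduced cells had been removed by the authors.

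Counts were summed over strands and divided by library totals. Ratios to 0 input reads used a floor of 3 reads. Intervals are 95% Clopper-Pearson for shares of regions, which they treat as independent, and exact binomial for ratios of reads. They cover counting error only, since reads counted without molecular identifiers may copy one molecule. Overlap meant at least 1 bp. Exact binomial tests were two-sided with Benjamini-Hochberg adjustment over all regions tested, and were tested on simulated data (Python 3.11.15, scipy 1.17.1, statsmodels 0.14.6). Each group held 1 library, so conditions were not tested, and the test of Spt16 against Oct4 reads compares those 2 libraries only. Members and gene lists were chosen with earlier results of these data known. Regions were named where they were in the top 10 by score, among the 5 highest with no listed gene, shared with Oct4 and Jmjd1c, among the next 5 highest shared with Oct4, beside list genes, nearest the 5000 bp limit, widest or narrowest, or past a test. The miRNA neighbors, the Kcnd3, Tpd52l1 and chromosome Y regions and the close pairs were named after their values were seen. Alternatives changed the distance limit, overlap, score minimum, neighbor window, chromosomes and scaling. The 0 h libraries were not analysed here.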

Additional observations from a re-analysis of the deposited data

How the results depend on the processing

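Of 80 alternatives run, 71 left the value within its error or within 1.5 times the count. The 71 include every setting of the strand test, which called 0 members in each. They also include the other overlap rules, which returned the same 75 and 7 members. Requiring no listed gene left 133 members, a start beyond 20000 bp left 284, and a score at or above the list's median left 243. With that score, the median was 46 reads and the Oct4 share 28.0% (68 of 243, against 19.6% of other Spt16 regions). A start beyond 20000 bp lowered the share of members beside pluripotency genes to 1.06% (3 of 284). Another Spt16 region lay within 10 kb of 8.30% of members and within 100 kb of 22.1%. Scaling to summed reads at shared regions left 0 members called for Spt16 above Oct4 at an adjusted p under 0.05, where library totals gave 3. The lowest adjusted p among members was 0.17 under that scaling (exact binomial test). The Oct4 share of members was above that of the other regions in each of the 8 alternatives to the member rule compared, and this difference was not tested. These alternatives draw largely on the same 458 regions, so they are not separate checks. Members dropped by a stricter distance rule counted among the other regions, which numbered 795 in the main setting and 1120 with no gene listed. Merging members within 10 kb and leaving out chromosome Y were chosen after seeing the data and moved no value past its error. No paired analysis was possible because each group held 1 library. Low read numbers limit the folds: with 26 reads and no input read, a ratio of only 3.45 can be stated as a lower bound.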
